A study of Mus musculus with 12 samples.

Results

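Transcripts of 10 genes of the unfolded protein response and the integrated stress response were followed in skeletal muscle of C57Bl/6 mice. They were the transcription factors Xbp1, Atf4 and Ddit3, the endoplasmic reticulum (ER) chaperones Hspa5, Hsp90b1 and Calr, the protein disulfide isomerase Pdia4, the ER-associated degradation genes Dnajb9 and Herpud1, and the pseudokinase gene Trib3. Every probe set of the Affymetrix arrays whose only gene symbol was one of these 10 was taken. This gave 24 of the 45037 probe sets tested, with at least 1 for each gene and 4 for Xbp1, and no filter on dim signal was set. RNA was measured on 12 arrays in 3 groups of 4. The first and second groups had eaten high-fat food (46% of its calories as fat) for 5 and for 42 days. The third had stayed on chow (13% as fat), which all mice had eaten until the diets parted at 6 weeks of age. With that common start, the 42-day mice were older when sampled than the 5-day mice. Age and time on the diet cannot be told apart between these groups. The mice were group housed, and no genotype other than the strain and no further agent is given. Which muscle was taken, from which sex, how old chow mice were when sampled and whether each replicate was its own animal are not given in the labels used here. The p-values below therefore cover only the spread between these samples, which may be technical. Both diet groups were set against the same 4 chow arrays.

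The values are log2 RMA signals, in which 1 unit is a doubling, errors after ± are SE for differences and SD for group means (n = 4 arrays per group), and a probe set is called changed at an adjusted p under 0.05 from limma. The mean of 10 skeletal muscle fibre markers, among them Acta1 and Ckm, was 14.48 ± 0.045 at 5 days, 14.48 ± 0.028 at 42 days and 14.42 ± 0.086 on chow. Acta1 (15.38, 15.40 and 15.39 in that order) and Ckm (15.42, 15.43 and 15.44) lay close to the highest signal of all (15.459), so they may hide a difference. The dimmest of these markers, Myh7 (12.21, 12.05 and 11.89) and Tnnt1 (11.95, 11.87 and 11.66), were lowest on chow, but 0 of the 10 rose or fell in any comparison. The array medians ran from 7.60 to 7.63 at 5 days, from 7.66 to 7.70 at 42 days and from 7.65 to 7.69 on chow, so the 5-day arrays lay slightly lower. In whole muscle, fewer cells of a type and less RNA per cell cannot be told apart.

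The ER folds proteins that are to be secreted or set into membranes, and in muscle it is continuous with the sarcoplasmic reticulum that stores calcium. When unfolded protein builds up, the sensors IRE1, PERK and ATF6 respond. IRE1 splices Xbp1 mRNA into the form that encodes an active transcription factor, ATF6 is cut to release another, and both switch on chaperones, disulfide isomerases and degradation genes. PERK and the other eIF2 kinases slow general translation while favouring that of Atf4 mRNA, and ATF4 switches on Ddit3 (which encodes CHOP), Trib3 and genes of amino acid supply. Probe sets measure the amount of mRNA, and neither the splicing of Xbp1 nor the translation of Atf4 can be read from them.

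Of the 10 members, 4 (Hspa5, Hsp90b1, Calr and Herpud1) held at least 1 of 4 short motifs through which this control is known to act, and these are shown because they are the known route from the stress sensors to such genes. The windows of Xbp1, Atf4, Ddit3, Pdia4, Dnajb9 and Trib3 held none of these letters. All 10 genes had a RefSeq promoter window (build GRCm38.p6), from 250 bases before to 50 bases after the gene's start, and both strands were searched. The ER stress response element, which is CCAAT, 9 free bases and CCACG, bound by ATF6 with NF-Y, was present in 3 of the 10 windows, against 39 of all 32851 windows (0.119%). As the members are known genes of this response, such shares, here and below, are a description and not a test of enrichment. Each element is printed 5′ to 3′ with 5 flanking bases on each side, which the coordinates include, and capitals mark the letters searched for. It lay at chr2:34772020-34772048 (plus strand) in Hspa5 and at chr8:84847070-84847098 (plus strand, opposite to the gene) in Calr. Hsp90b1 held it at chr10:86705633-86705661 (minus strand, that of the gene) and again at chr10:86705528-86705556 (plus strand, opposite to the gene).
Hspa5 element: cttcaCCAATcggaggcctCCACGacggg
Calr element: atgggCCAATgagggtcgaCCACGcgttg
Hsp90b1 far element: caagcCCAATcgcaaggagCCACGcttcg
Hsp90b1 near element: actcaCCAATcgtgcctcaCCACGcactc

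Herpud1 held other kinds of element. The ER stress response element II, which is ATTGG, 1 free base and CCACG, was in 12 of 32851 windows (0.0365%) and among the members only in Herpud1, at chr8:94386372-94386392 (plus strand, that of the gene). The C/EBP-ATF composite site TTGCATCA, to which ATF4 with a C/EBP partner and CHOP are known to bind, was in 294 windows (0.895%) and among the members only in Herpud1, at chr8:94386312-94386329 (plus strand). The unfolded protein response element TGACGTGG, bound by XBP1, was in 222 windows (0.676%) and in 0 of the 10 members' windows, which says only that these letters are not in these windows.
Herpud1 element II: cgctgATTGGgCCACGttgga
Herpud1 composite site: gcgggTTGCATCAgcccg

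After 5 days on the high-fat diet, 1 of the 24 member probe sets rose, 0 fell and 23 did not pass, a share close to the 3.21% called among all 45037 probe sets (1.53% higher, 1.68% lower). It was 1 of the 4 probe sets of Xbp1. After 42 days, 2 rose (Xbp1 and Hsp90b1), 2 fell (Xbp1 and Atf4) and 20 did not pass, where 8.78% of all probe sets were called (4.65% higher, 4.13% lower). Between 42 and 5 days, 0 rose, 2 fell (Xbp1 and Hspa5) and 22 did not pass, against 5.98% of all (2.38% higher, 3.59% lower). At an unadjusted p under 0.05 there were 10 member probe sets at 5 days, 6 at 42 days and 8 between the 2 times, where 24.1%, 23.1% and 27.6% of all probe sets lay under that bound. The size of the differences was small throughout, from -0.29 to 0.32 at 5 days, from -0.52 to 0.54 at 42 days and from -0.25 to 0.23 between the 2 times.

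**Figure D1:**
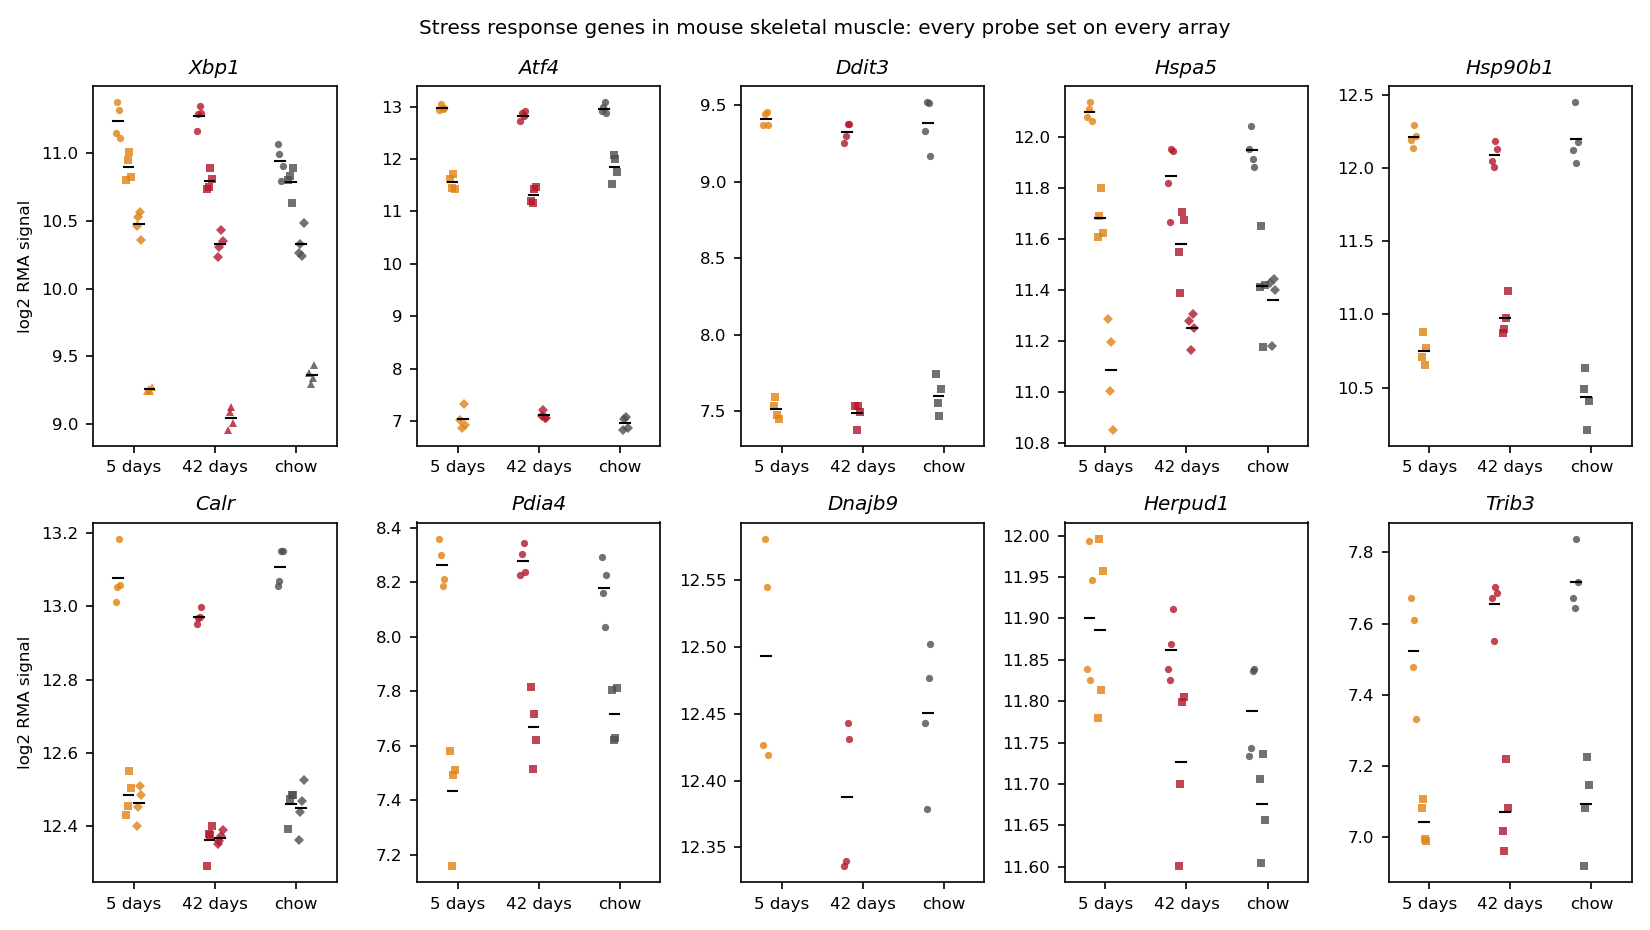
Log2 RMA signal (y axis, a separate scale for each gene) of every member probe set on every array, with the 5-day (orange), 42-day (red) and chow (grey) groups along the x axis. Each point is 1 array, each marker shape is 1 probe set of the gene (circle, square, diamond and triangle from the brightest down) and black bars are group means of 4 arrays; the brightest Xbp1 probe set lies higher in both diet groups than on chow, and its dimmest lies lower.

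The 4 probe sets of Xbp1 did not move together. The brightest, 1420886_a_at, had signals of 11.14, 11.37, 11.32 and 11.11 at 5 days, of 11.16, 11.29, 11.35 and 11.29 at 42 days, and of 11.06, 10.99, 10.79 and 10.90 on chow. All 8 diet arrays were above all 4 chow arrays. It rose by 0.30 ± 0.075 at 5 days (1.23-fold, adjusted p = 0.0455) and by 0.33 ± 0.075 at 42 days (1.26-fold, adjusted p = 0.0131), and the 2 times differed by 0.035 ± 0.075 (adjusted p = 0.786). The 5-day call held in 3 of the 12 fits that left out 1 array, with the highest adjusted p (0.131) without 5-day replicate 2, and the 42-day call was lost only without chow replicate 3 (adjusted p = 0.0505).

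The dimmest Xbp1 probe set, 1420012_at, went the other way. It had 9.25, 9.26, 9.25 and 9.28 at 5 days, 8.96, 9.09, 9.12 and 9.01 at 42 days, and 9.38, 9.30, 9.35 and 9.44 on chow. None of the 3 groups overlapped another, with chow highest and 42 days lowest. It fell by 0.32 ± 0.054 at 42 days against chow (1.25-fold, adjusted p = 0.00255), a call that held in all 12 fits without 1 array. At 42 days it was also lower than at 5 days, by a log2 difference of -0.21 ± 0.054 (adjusted p = 0.0378), and that call held in 5 of the 12, with the highest adjusted p (0.114) without 42-day replicate 1. Its 5-day difference from chow was -0.11 ± 0.054 (adjusted p = 0.241). The probe sets 1420011_s_at and 1437223_s_at lay between, at 0.11 ± 0.068 and 0.15 ± 0.069 for 5 days against chow (adjusted p = 0.35 and 0.201) and at 0.0057 ± 0.068 and 0.00080 ± 0.069 for 42 days (adjusted p = 0.976 and 0.997). Called probe sets of opposite sign within 1 gene were found in 179 of the 9010 genes with several probe sets (1.99%) for 42 days against chow, and Xbp1 was 1 of them.

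Atf4, the effector of the integrated stress response, had 3 probe sets, and only the x-type one changed. This probe set, 1438992_x_at, had 11.61, 11.44, 11.72 and 11.43 at 5 days, 11.20, 11.17, 11.43 and 11.47 at 42 days, and 11.53, 12.07, 12.01 and 11.75 on chow. The 42-day arrays all lay below the chow arrays, while the 5-day arrays overlapped both. It fell by 0.52 ± 0.11 at 42 days against chow (1.43-fold, adjusted p = 0.0102), also without any 1 array, and the 5-day difference was -0.29 ± 0.11 (adjusted p = 0.139). The suffix x is the maker's mark for a probe set with probes that can match other transcripts too. The brightest Atf4 probe set, 1448135_at, averaged 12.98 ± 0.051 at 5 days, 12.83 ± 0.084 at 42 days and 12.96 ± 0.095 on chow. Its differences were 0.018 ± 0.062 at 5 days and -0.13 ± 0.062 at 42 days against chow (adjusted p = 0.888 and 0.209), and -0.15 ± 0.062 between 42 and 5 days (adjusted p = 0.131), where the groups did not overlap. The dim probe set 1439258_at averaged 7.03 ± 0.21 at 5 days, 7.11 ± 0.075 at 42 days and 6.95 ± 0.12 on chow, and did not pass in any comparison.

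Ddit3, which encodes the transcription factor CHOP of prolonged stress, did not pass in any comparison. Its probe set 1417516_at had 9.37, 9.45, 9.46 and 9.37 at 5 days, 9.25, 9.30, 9.38 and 9.38 at 42 days, and 9.33, 9.52, 9.51 and 9.17 on chow. The chow arrays alone spanned the values of both diet groups. The differences from chow were 0.028 ± 0.073 at 5 days and -0.056 ± 0.073 at 42 days (adjusted p = 0.848 and 0.708). The dim probe set 1443897_at differed by -0.087 ± 0.066 and -0.11 ± 0.066 at the same times (adjusted p = 0.433 and 0.331). Trib3, a target of ATF4 and CHOP whose product binds the kinase AKT, had dim signals as well. Its probe set 1426065_a_at had 7.67, 7.48, 7.61 and 7.33 at 5 days, 7.67, 7.55, 7.70 and 7.69 at 42 days, and 7.67, 7.64, 7.84 and 7.72 on chow. The groups overlapped, and the differences from chow were -0.19 ± 0.074 at 5 days and -0.064 ± 0.074 at 42 days (adjusted p = 0.13 and 0.667). The other probe set, 1456225_x_at, stayed within 0.051 of chow at both times (adjusted p = 0.70 at 5 days and 0.894 at 42 days).

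**Figure D2:**
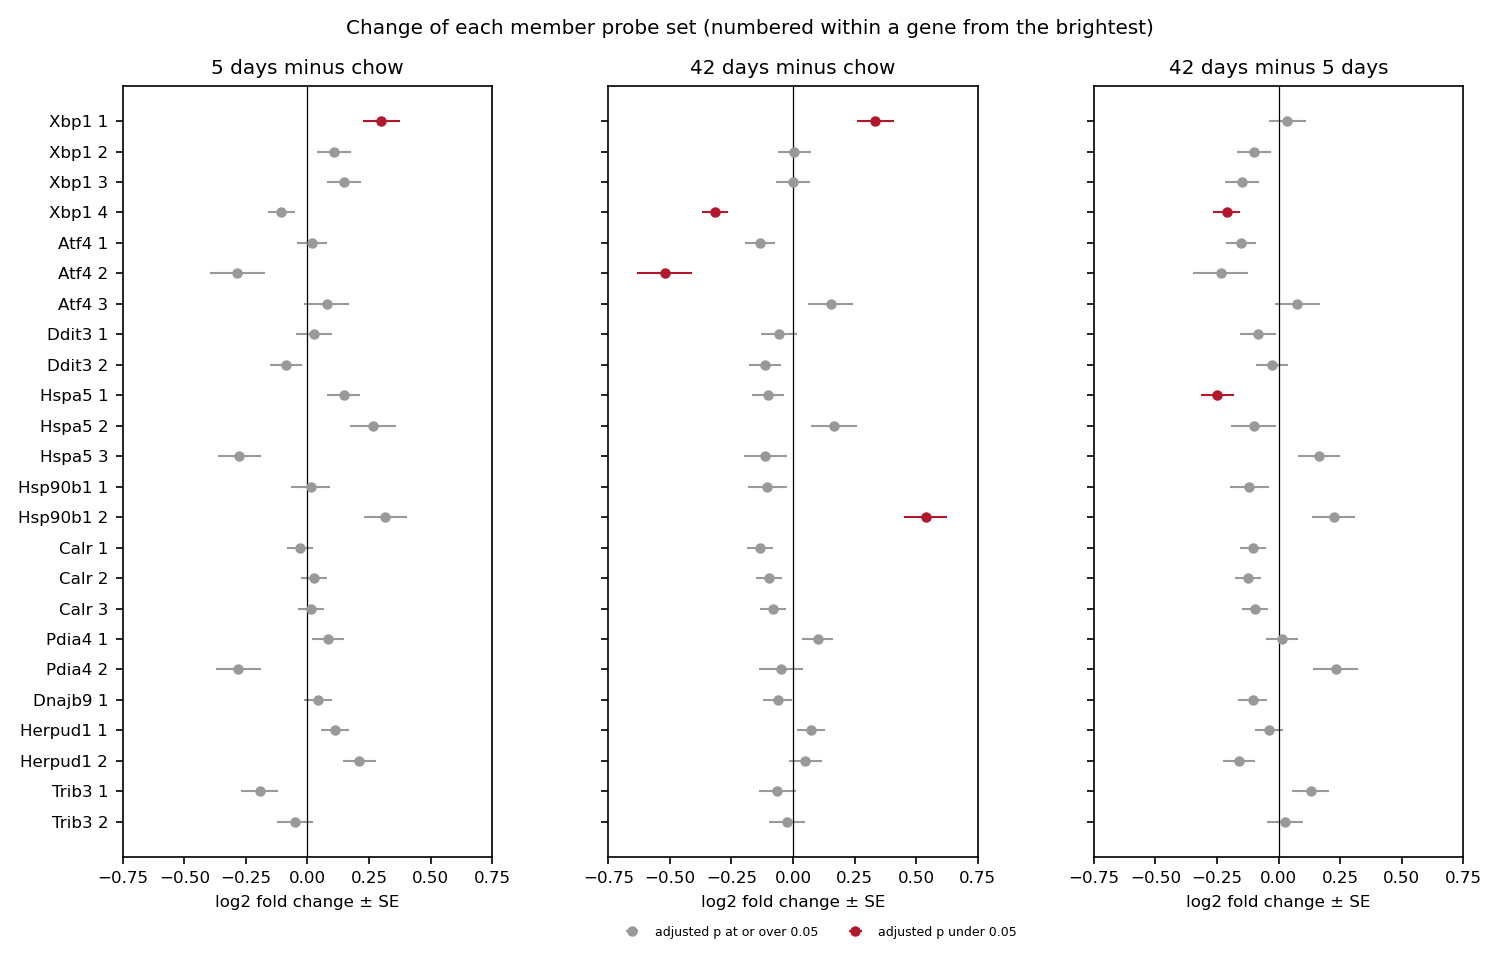
Log2 fold change ± SE (x axis) of the 24 member probe sets (y axis, numbered within each gene from the brightest) for 5 days minus chow, 42 days minus chow and 42 days minus 5 days. Red points passed an adjusted p under 0.05: Xbp1 1 at 5 days, Xbp1 1, Xbp1 4, Atf4 2 and Hsp90b1 2 at 42 days, and Xbp1 4 and Hspa5 1 between the 2 times.

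Hspa5 encodes BiP, the chaperone that holds the stress sensors inactive and the most used mark of ER stress. Its brightest probe set, 1416064_a_at, had 12.08, 12.11, 12.13 and 12.06 at 5 days, 11.82, 11.67, 11.95 and 11.94 at 42 days, and 11.95, 12.04, 11.91 and 11.88 on chow. The 5-day arrays lay above all others, and the 42-day arrays overlapped chow. The 5-day difference from chow was 0.15 ± 0.066 (adjusted p = 0.189) and the 42-day one -0.10 ± 0.066 (adjusted p = 0.392). Between 42 and 5 days it fell by 0.25 ± 0.066 (1.19-fold, adjusted p = 0.0419), a call that held in 5 of the 12 fits without 1 array, with the highest adjusted p (0.109) without 42-day replicate 1. The other 2 probe sets of Hspa5 differed from it. For 1427464_s_at the differences from chow were 0.27 ± 0.092 at 5 days and 0.17 ± 0.092 at 42 days (adjusted p = 0.103 and 0.309). For 1447824_x_at they were -0.28 ± 0.087 and -0.11 ± 0.087 (adjusted p = 0.0787 and 0.486), and without 5-day replicate 1 the 5-day value was -0.34 (adjusted p = 0.0442). Between 42 and 5 days, 1427464_s_at differed by -0.10 ± 0.092 (adjusted p = 0.49) and 1447824_x_at by 0.16 ± 0.087 (adjusted p = 0.23), the latter opposite to the brightest. The span of 0.54 between the highest and lowest of the 3 at 5 days was larger than in 98.3% of the 9010 genes with several probe sets. Those genes were not matched for the number of probe sets, with which such a span can grow.

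Hsp90b1 encodes GRP94, the ER form of HSP90, and its 2 probe sets also disagreed. The dimmer, 1438040_a_at, had 10.71, 10.88, 10.65 and 10.77 at 5 days, 10.87, 10.90, 10.97 and 11.16 at 42 days, and 10.49, 10.63, 10.21 and 10.41 on chow. All 8 diet arrays were above all 4 chow arrays. It rose by 0.54 ± 0.087 at 42 days (1.45-fold, adjusted p = 0.00194), also without any 1 array. At 5 days the difference was 0.32 ± 0.087 (adjusted p = 0.058), and without chow replicate 2 it was 0.38 (adjusted p = 0.042). The brighter probe set, 1415889_a_at, had 12.19, 12.13, 12.29 and 12.22 at 5 days, 12.05, 12.01, 12.19 and 12.13 at 42 days, and 12.13, 12.45, 12.03 and 12.18 on chow. Here the 3 groups overlapped, and the differences from chow were 0.013 ± 0.079 and -0.11 ± 0.079 (adjusted p = 0.937 and 0.471). For 42 days against chow the span between the probe sets of a gene was 0.64 for Hsp90b1, 0.65 for Xbp1 and 0.67 for Atf4, each larger than in at least 95.0% of genes with several probe sets. The number of probe sets was again not matched.

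Calr encodes calreticulin, the lectin chaperone that also buffers calcium in the ER, and its 3 probe sets moved alike. The brightest, 1417606_a_at, had 13.01, 13.05, 13.18 and 13.06 at 5 days, 12.95, 12.97, 12.97 and 13.00 at 42 days, and 13.06, 13.07, 13.15 and 13.15 on chow. The 42-day arrays were below all arrays of both other groups. Against chow the differences were -0.030 ± 0.054 at 5 days and -0.14 ± 0.054 at 42 days (adjusted p = 0.76 and 0.138), and between 42 and 5 days the value was -0.10 ± 0.054 (adjusted p = 0.218). The probe sets 1456170_x_at and 1433806_x_at differed by -0.12 ± 0.052 and -0.095 ± 0.052 between 42 and 5 days (adjusted p = 0.145 and 0.249), again with no overlap. None of these passed.

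Pdia4, a disulfide isomerase of the ER lumen, did not pass with either probe set. The brighter, 1416497_at, averaged 8.26 ± 0.079 at 5 days, 8.28 ± 0.056 at 42 days and 8.18 ± 0.11 on chow. The dimmer, 1450620_at, had 7.58, 7.16, 7.50 and 7.51 at 5 days, 7.82, 7.52, 7.72 and 7.62 at 42 days, and 7.81, 7.62, 7.63 and 7.81 on chow. Its 5-day arrays lay below all chow arrays, with a difference of -0.28 ± 0.091 (adjusted p = 0.0856), while at 42 days it was -0.049 ± 0.091 (adjusted p = 0.807). With 5-day means on opposite sides of chow, the 2 probe sets gave no common direction.

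Dnajb9 encodes ERdj4, a co-chaperone of BiP and a target of XBP1, and Herpud1 encodes a membrane protein of the degradation complex. Dnajb9 had 1 probe set, 1417191_at, with 12.43, 12.58, 12.54 and 12.42 at 5 days, 12.34, 12.34, 12.44 and 12.43 at 42 days, and 12.44, 12.38, 12.48 and 12.50 on chow. Its groups overlapped, with differences from chow of 0.043 ± 0.057 and -0.063 ± 0.057 (adjusted p = 0.679 and 0.57). Herpud1, the member with the element II and the composite site printed above, had 11.78, 12.00, 11.81 and 11.96 at 5 days for 1448185_at, 11.60, 11.70, 11.80 and 11.80 at 42 days, and 11.71, 11.61, 11.74 and 11.66 on chow. All 5-day arrays were above all chow arrays, with a difference of 0.21 ± 0.066 that did not pass (adjusted p = 0.0791), and the 42-day value was 0.050 ± 0.066 (adjusted p = 0.712). Its other probe set, 1435626_a_at, differed from chow by 0.11 ± 0.056 at 5 days and 0.073 ± 0.056 at 42 days (adjusted p = 0.233 and 0.484).

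Among the 3 members whose windows hold the ER stress response element, the brightest probe sets of Hspa5, Hsp90b1 and Calr differed from chow by 0.15, 0.013 and -0.030 at 5 days and by -0.10, -0.11 and -0.14 at 42 days, and none of these passed. Of their dimmer probe sets, Hsp90b1 1438040_a_at passed against chow, with its rise of 0.54 at 42 days (adjusted p = 0.00194). Without overlap between the groups, 4 member probe sets were higher and 2 lower at 5 days than on chow, where 4.88% and 6.83% of all probe sets were (11.7% in all). For 42 days against chow these counts were 2 and 3 (7.42% and 7.81%, or 15.2% in all), and for 42 against 5 days 0 and 6 (7.88% and 9.87%, or 17.8% in all). The 6 were all 3 probe sets of Calr and 1 each of Atf4, Xbp1 and Hspa5.

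The members' medians had the same sign as those of other bright probe sets. The median difference over the 24 was 0.027 at 5 days and -0.060 at 42 days against chow, and -0.098 between 42 and 5 days, where the medians over all 45037 were -0.021, -0.0060 and 0.028. However, 16 of the 24 lay in the 2 brightest deciles of all probe sets by mean signal. The medians of these 16 were 0.075, -0.072 and -0.11 in the same order of comparisons, and those of all probe sets in the 2 brightest deciles were 0.066, -0.039 and -0.095. For 42 against 5 days, 11.9% and 9.1% of all probe sets in the 2 brightest deciles were called lower, and 1.47% and 0.888% higher. Quantile normalization of the arrays turned the member median at 5 days to -0.0021 and brought that for 42 against 5 days to -0.031, and centring each array on its median gave 0.086 and -0.16 for the same medians. After quantile normalization the 2 calls of that last comparison were lost (adjusted p = 0.0928 for Xbp1 and 0.155 for Hspa5).

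**Figure D3:**
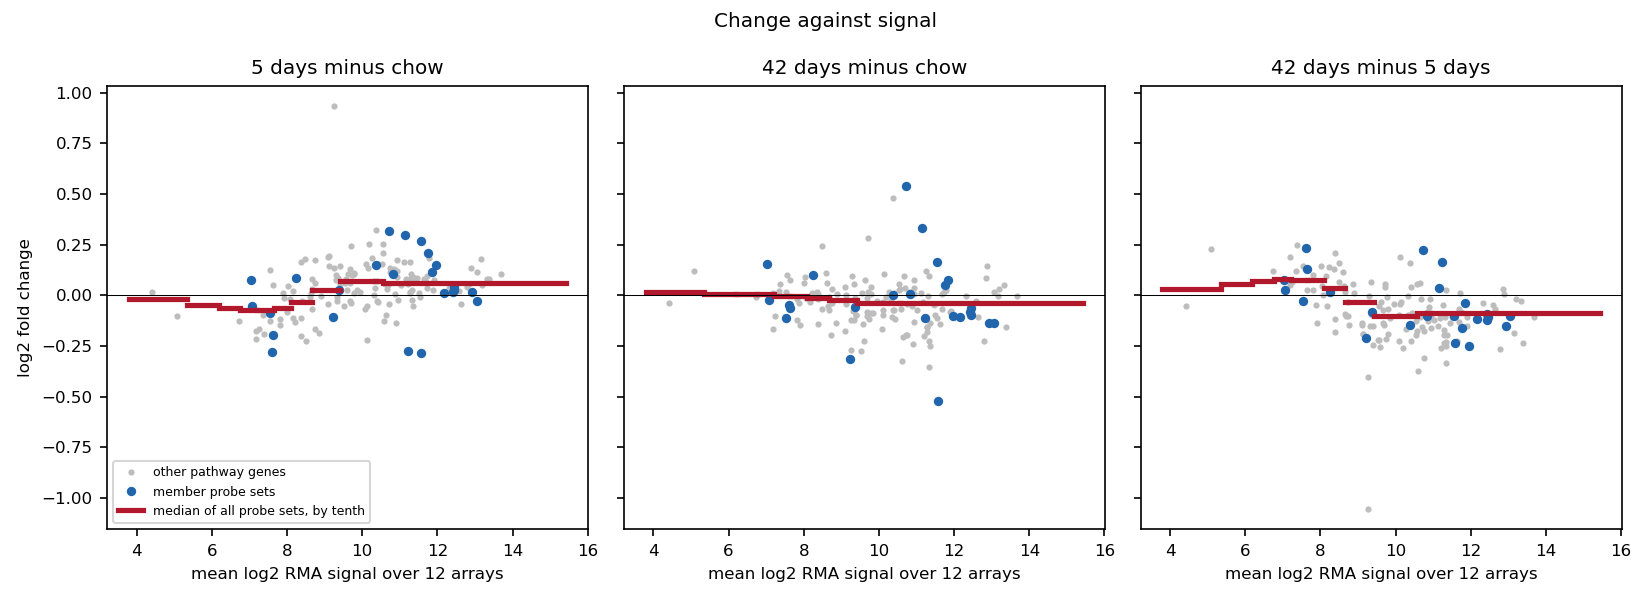
Log2 fold change (y axis) against mean log2 RMA signal over the 12 arrays (x axis) for 5 days minus chow, 42 days minus chow and 42 days minus 5 days. Blue points are the 24 member probe sets, grey points the 137 other pathway genes and red lines the median of all probe sets in each decile by signal; for 42 minus 5 days the red lines lie below 0 in the 3 brightest deciles, where most members are.

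Values that moved with the groups stand beside these results, and their part in them was not tested. Where a covariate moved with the groups, the fits given here cannot tell it apart from the diet. The mean of 12 fibroblast and tendon markers was 11.08 (10.71 to 11.34) at 5 days, 11.30 (11.22 to 11.38) at 42 days and 10.79 (10.61 to 10.98) on chow, and 6 of the 12 rose at 42 days. With that mean as a covariate, 0 of the 24 probe sets passed limma in any comparison (an unadjusted p under 0.05 was left for 3 at 5 days, 4 at 42 days and 7 between the times), and 0 of all 45037 passed either. The 42-day differences in that fit were 0.35 for Xbp1 1420886_a_at and -0.32 for Xbp1 1420012_at, as large as without the covariate, and 0.33 for Hsp90b1 1438040_a_at and -0.36 for Atf4 1438992_x_at, which were smaller. The mean of 6 hepatocyte markers was 8.66 (8.12 to 9.31) at 5 days, 9.65 (9.13 to 10.202) at 42 days and 8.54 (8.36 to 8.69) on chow, and all 6 rose at 42 days against chow. The white adipocyte mean (9 of 12 markers measured) was 10.55 (10.38 to 10.78) at 5 days, 10.75 (10.30 to 11.11) at 42 days and 11.15 (10.79 to 11.76) on chow. Against chow 0 of the 9 rose and 2 fell at 5 days, while 1 rose and 0 fell at 42 days. With the white adipocyte mean as a covariate all 4 member calls at 42 days were kept (adjusted p = 0.0103 to 0.0454), while 0 of the 24 passed at 5 days (6 at an unadjusted p under 0.05) and 1 between the times. The mean of 3 brown adipocyte markers was 6.95 (6.84 to 7.06) at 5 days, 7.29 (6.86 to 8.01) at 42 days and 8.13 (7.04 to 8.94) on chow, and 0 of the 3 passed against chow at either time. The mean of 7 endothelium markers was 9.40 (9.24 to 9.56) at 5 days, 9.27 (9.18 to 9.32) at 42 days and 9.20 (9.15 to 9.26) on chow, with 2 of 7 higher at 5 days. Markers of B and plasma cells, in which Xbp1 is highly expressed, averaged 7.14 (7.05 to 7.21), 7.26 (7.25 to 7.27) and 7.25 (7.19 to 7.30) in the same order, and log2 RMA signals have no zero against which to call such genes absent. The 3′ minus 5′ signal of 4 control transcripts, a measure of RNA integrity, was 1.02 (0.932 to 1.098) at 5 days, 0.89 (0.825 to 0.998) at 42 days and 1.07 (0.993 to 1.14) on chow. With it as a covariate 0 of the 24 passed, with 8, 7 and 5 at an unadjusted p under 0.05, and of all 45037 probe sets 533 passed at 5 days, 17 at 42 days and 1 between the times. The 42-day differences in that fit were -0.52 for Atf4 1438992_x_at, -0.30 for Xbp1 1420012_at, 0.41 for Hsp90b1 1438040_a_at and 0.25 for Xbp1 1420886_a_at.

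Beyond the members, 144 genes of the same pathways were drawn from 9 lists, of which 137 were measured, each by its brightest probe set. After 5 days 1 of them rose and 0 fell, after 42 days 2 rose and 7 fell, and between 42 and 5 days 0 rose and 14 fell. In the same form, with 1 probe set per gene, 2.89% of all 18193 genes were called at 5 days (1.24% higher, 1.65% lower), 6.31% at 42 days (2.41% higher, 3.9% lower) and 6.1% between the times (1.76% higher, 4.34% lower). Differences from chow at 5 days were above 0 in 93 of the 137 and below 0 in 44, and their median was 0.050 against -0.010 over all genes. At 42 days the same counts were 54 and 83 (median -0.027 against -0.013), and for 42 against 5 days 37 and 100 (median -0.097 against 0.0078). After quantile normalization the genes above 0 numbered 69, 60 and 53 of 137, after cyclic loess 75, 65 and 56, and with each array centred on its median 113, 49 and 16.

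The 1 gene that rose at 5 days by its brightest probe set was Edem3, of the family that trims mannose from misfolded glycoproteins for degradation. It had 10.62, 10.74, 10.67 and 10.76 at 5 days, 10.44, 10.49, 10.55 and 10.52 at 42 days, and 10.33, 10.46, 10.49 and 10.48 on chow. The 5-day arrays stood above all others, with a difference from chow of 0.25 ± 0.057 (adjusted p = 0.0351) that passed in 7 of the 12 fits without 1 array and was 0.24 without 5-day replicate 2 (adjusted p = 0.105). In the other 8 lists no brightest probe set passed at 5 days, and the smallest p in each was that of Dnajc3, Phgdh, Eif2ak4, Pdia3, Spcs3, Dnajb11, Hspa9 and Bcl2l11. Dnajc3, which encodes the eIF2 kinase inhibitor p58IPK, differed by 0.25 ± 0.067 (adjusted p = 0.0528), and another of its 5 probe sets, 1419162_s_at, rose by 0.32 (adjusted p = 0.0347). Probe sets other than the brightest also rose for Eif2ak1 (1421900_at, 0.33, adjusted p = 0.0315) and Ubxn4 (1426485_at, 0.28, adjusted p = 0.0373). Phgdh of serine synthesis was at -0.22 ± 0.065 (adjusted p = 0.066), the amino acid sensing kinase Eif2ak4 at -0.17 ± 0.054 (adjusted p = 0.0846) and the disulfide isomerase Pdia3 at 0.32 ± 0.10 (adjusted p = 0.0853). Spcs3 of the signal peptidase was at 0.17 ± 0.059 and the BiP co-chaperone Dnajb11 at 0.15 ± 0.057 (adjusted p = 0.0987 and 0.121). Mitochondrial Hspa9 was at 0.14 ± 0.056 and the apoptosis gene Bcl2l11 at 0.13 ± 0.057 (adjusted p = 0.157 and 0.173). Atf3, chosen after its values were seen for its size, was at 0.93 ± 0.30 (adjusted p = 0.0847) with 5-day arrays that had an SD of 0.86, against 0.15 on chow.

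After 42 days the disulfide isomerase Pdia3, a partner of calreticulin, rose most among the pathway genes. It had 10.32, 10.53, 10.31 and 10.56 at 5 days, 10.47, 10.53, 10.56 and 10.80 at 42 days, and 10.18, 10.35, 9.81 and 10.11 on chow. The 42-day arrays all lay above chow, and the rise was 0.48 ± 0.10 (1.40-fold, adjusted p = 0.0104). The adaptor Nck1 rose by 0.28 ± 0.079 (adjusted p = 0.037), a call lost without 42-day replicates 1, 2, 3 or 4 or chow replicates 3 or 4 (adjusted p up to 0.119). The 7 that fell were the BiP exchange factor Sil1 by 0.27 ± 0.059, the membrane co-chaperone Dnajc1 by 0.27 ± 0.069, the membrane disulfide isomerase Tmx1 by 0.32 ± 0.069, the ubiquitin-conjugating enzyme Ube2j1 by 0.20 ± 0.056, the VCP partner Ubxn4 by 0.22 ± 0.064, the translation repressor Eif4ebp1 by 0.35 ± 0.075 and mitochondrial folate enzyme Mthfd2 by 0.20 ± 0.058. Their adjusted p lay between 0.00915 (Eif4ebp1) and 0.047 (Mthfd2). Among the 9 genes, only Eif4ebp1 had another probe set that passed, 1417563_at (-0.23, adjusted p = 0.0288). The calls of Pdia3, Sil1, Tmx1 and Eif4ebp1 held in all 12 fits without 1 array, and 4 of the 9 calls were left without 42-day replicate 1, chow replicate 3 or chow replicate 4. With the fibroblast and tendon markers as a covariate 0 of the 137 passed (12 at an unadjusted p under 0.05), as did 0 of all 45037 probe sets. The differences in that fit were 0.23 for Pdia3 and 0.065 for Nck1, while those of the 7 genes that fell ran from -0.33 (Dnajc1) to -0.14 (Mthfd2), with Sil1 at -0.28 and Eif4ebp1 at -0.29. In the 4 lists with no call, the smallest p belonged to the membrane-bound factor Creb3l1 (0.24 ± 0.096, adjusted p = 0.137), Sec11c of the signal peptidase (-0.23 ± 0.076, adjusted p = 0.0774), the apoptosis gene Bak1 (-0.18 ± 0.071, adjusted p = 0.136) and Hspa9 (0.14 ± 0.056, adjusted p = 0.129).

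Between 42 and 5 days all 14 calls were falls, spread over 6 of the 9 lists. The largest was that of Dnajc1, with 8.90, 8.96, 9.14 and 9.10 at 42 days, against 9.43, 9.51, 9.35 and 9.44 at 5 days. The groups did not overlap, and it fell by 0.41 ± 0.069 (1.33-fold, adjusted p = 0.0168). No other Dnajc1 probe set passed, and 1420501_at, nearly as bright, differed by 0.0092 (adjusted p = 0.934). Tmx1 fell by 0.38 ± 0.069 (adjusted p = 0.0183), Eif4ebp1 by 0.33 ± 0.075 (adjusted p = 0.0278) and Selenos, a selenoprotein of the degradation complex, by 0.31 ± 0.077 (adjusted p = 0.0337), where all 3 probe sets of Selenos passed. The other Tmx1 probe set, 1451195_a_at, was at -0.15 (adjusted p = 0.102), and the other Eif4ebp1 probe sets did not pass either. The other 10 fell by 0.22 to 0.26: the heme-regulated kinase Eif2ak1, the eIF2 exchange factor subunit Eif2b4, Dnajc3, the HSP70 relative Hspa13, Sil1, the degradation genes Ubxn4 and Ube2g2, Shmt2 of glycine synthesis, the C/EBP family member Cebpg and the alanyl-tRNA synthetase Aars1. Other probe sets of 3 of these genes rose against chow at 42 days, namely Eif2ak1 1421900_at by 0.33 (adjusted p = 0.00813), Ube2g2 1417033_at by 0.33 (adjusted p = 0.017) and Hspa13 1429502_at by 0.41 (adjusted p = 0.0262). None of the 14 calls was left without 5-day replicate 2, 42-day replicate 1 or 42-day replicate 4 (0 of 137 by limma each, with 40, 40 and 54 at an unadjusted p under 0.05). After quantile normalization the calls of Dnajc1 (adjusted p = 0.022) and Tmx1 (adjusted p = 0.0352) were left of the 14. Of the 137 genes, 106 were in the 3 brightest deciles, where 9.27% of all probe sets were called lower in this comparison and the median was -0.077, against -0.11 for these 106. In the 3 lists with no call, the smallest p belonged to Sec11c (-0.25 ± 0.076, adjusted p = 0.0578), Bcl2l11 (-0.15 ± 0.057, adjusted p = 0.119) and the mitochondrial protease Lonp1 (-0.18 ± 0.063, adjusted p = 0.0933).

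**Figure D4:**
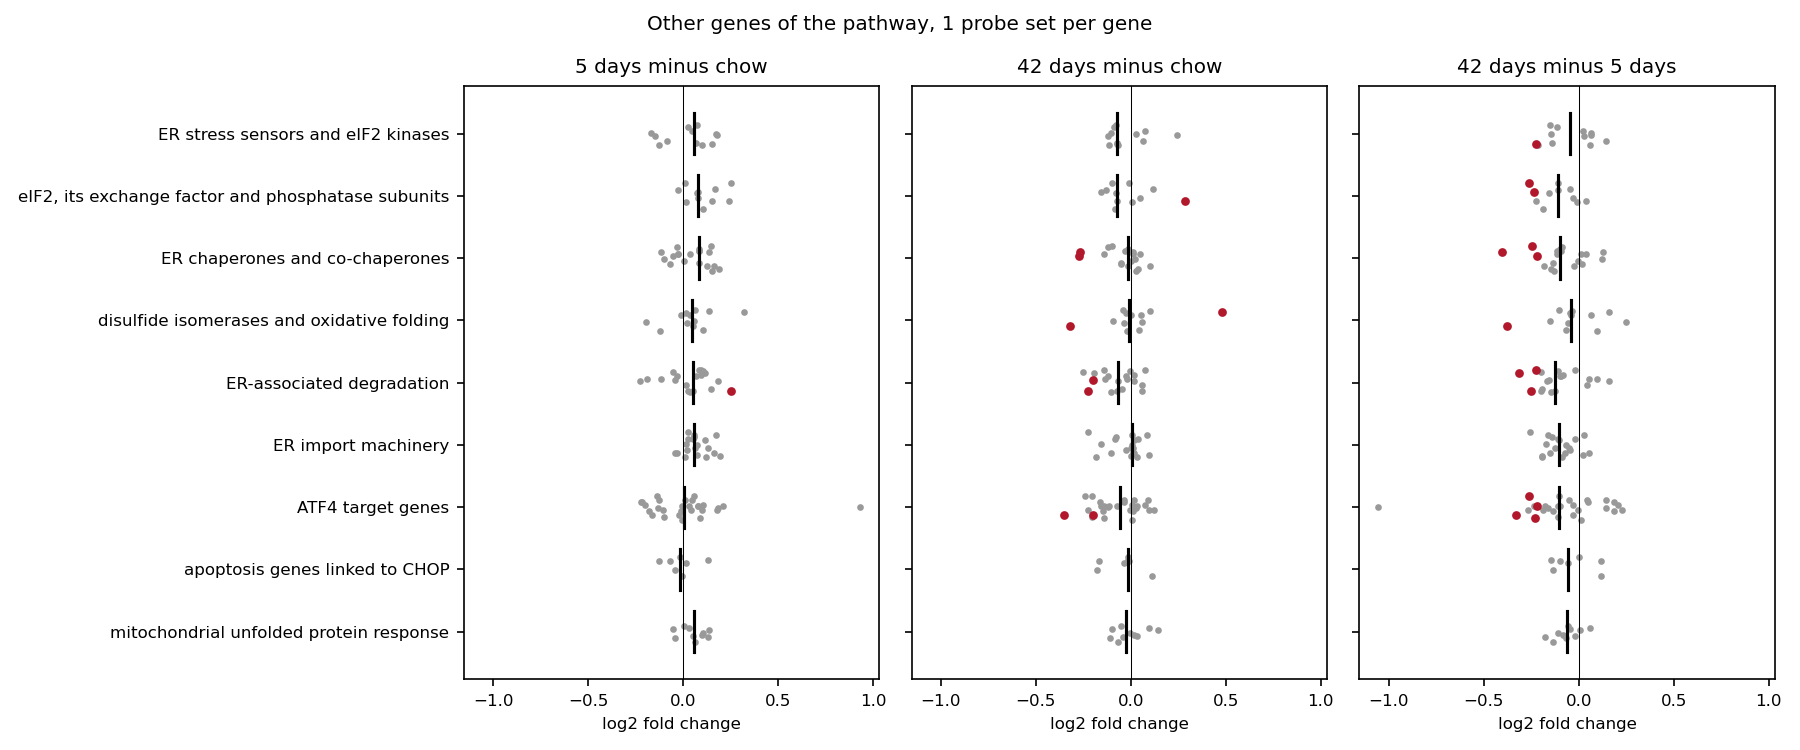
Log2 fold change (x axis) of the 137 measured genes of 9 pathway lists (y axis, points spread vertically for legibility), 1 probe set per gene, for 5 days minus chow, 42 days minus chow and 42 days minus 5 days. Red points passed an adjusted p under 0.05 (1, 9 and 14 genes), grey points did not and black bars are list medians; the lone points at 0.93 for 5 days minus chow and at -1.05 for 42 minus 5 days are Atf3.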

How the data were processed

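Biotin-labelled cRNA from 12 skeletal muscle samples was hybridised to Affymetrix arrays. The deposited log2 values are RMA signals, per the submitters' processing notes; the version and the software are not given in the sources used here, and their range, with a minimum of 3.67, is that of a log2 scale. Of 45098 probe sets, 61 controls were left out; of the rest 34945 carried 1 gene symbol in the platform annotation, 932 several and 9160 none. No several-symbol probe set named a member. The precision is limited by the number of arrays.

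A mean per group was estimated on the 12 arrays in limma 3.58.1 in R 4.3.3 (lmFit, eBayes with a constant prior, 9 residual and 6.26 prior degrees of freedom), with 3 contrasts tested on both sides and the Benjamini-Hochberg adjustment taken over 45037 probe sets. Each fold is the antilog of the size of a difference. The members and lists were chosen with earlier results of these data known. Beside all members, the text names, per list and comparison, up to 4 genes with the smallest p among those that passed, or the 1 with the smallest p; genes named outside this rule (other probe sets of called genes, Atf3) were chosen after their values were seen. Promoter windows are those of RefSeq (GRCm38.p6). Alternatives were 3 normalizations, a filter on the 40% dimmest probe sets, probe sets with 1 symbol, 1 probe set per gene, a trended robust prior, the 8 arrays compared, a replicate block, 3 covariates and each array left out. The procedure was tested on simulated data.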

Additional observations from a re-analysis of the deposited data

Results flagged for a closer look

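Dixon's test for a single array far from the other 3 of its group was applied to 72 groups of member probe sets, and 2 arrays stood apart, where chance gives about 1 in 20 groups. Chow replicate 2 had 11.181 for Hspa5 1447824_x_at, and the other chow arrays lay between 11.397 and 11.44. Chow replicate 1 had 12.394 for Calr 1456170_x_at, and the others lay between 12.476 and 12.486. The change from chow differed between the times, by the test of 42 against 5 days itself, for Xbp1 1420012_at (-0.21, adjusted p = 0.0378 by limma) and for Hspa5 1416064_a_at (-0.25, adjusted p = 0.0419). No other probe set of Xbp1 or Hspa5 passed in this comparison, and Xbp1 1420886_a_at (0.035) and Hspa5 1447824_x_at (0.16) had the opposite sign.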

How the results depend on the processing

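At 5 days against chow, 1445 probe sets, 1 member probe set and 1 pathway gene were called. The probe sets numbered 2771 with each array centred on its median, 482 after quantile normalization, 502 after cyclic loess, 692 with 1 probe set per gene, 7 in the fit of the 8 arrays compared, 533 with the 3′ to 5′ covariate, 6 with the white adipocyte covariate and 0 with the fibroblast and tendon covariate. The higher ones were 47.5% of the 1445, 60.6% after quantile normalization, 85.3% after centring and 62.5% after loess. Member calls numbered 3 after centring or with a trended prior, 2 without the 40% dimmest probe sets, and 0 after quantile normalization, loess, in the 8 arrays or with the 3′ to 5′, adipocyte or fibroblast covariate (by limma; 7, 7, 9, 8, 6 and 3 at an unadjusted p under 0.05). Pathway calls numbered 10 after centring, 5 without the dimmest, 2 each with 1 symbol, 1 probe set per gene, the trended prior or the replicate block, and 0 after loess, in the 8 arrays or with the 3 covariates (18, 23, 25, 17 and 17 unadjusted).

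At 42 days against chow, 3953 probe sets, 4 member probe sets and 9 pathway genes were called. The probe sets numbered 1011 with 1 per gene, 17 with the 3′ to 5′ covariate, 1857 with the adipocyte covariate and 0 with the fibroblast covariate. Member calls numbered 1 with 1 per gene and 0 with the 3′ to 5′ or fibroblast covariate (7 and 4 unadjusted). Pathway calls numbered 14 with the trended prior, 2 with the adipocyte covariate and 0 with the 3′ to 5′ or fibroblast covariate (12 each unadjusted).

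Between 42 and 5 days, 2692 probe sets, 2 member probe sets and 14 pathway genes were called. The probe sets numbered 1210 after quantile normalization, 5221 after centring (9.69% higher, against 39.9% of the 2692), 1128 after loess, 1550 with 1 per gene, 1 with the 3′ to 5′ covariate and 0 with the fibroblast covariate. Member calls numbered 1 with 1 per gene, in the 8 arrays or with the adipocyte covariate, and 0 after quantile normalization, loess, or with the replicate block, the 3′ to 5′ or the fibroblast covariate (4, 4, 9, 5 and 7 unadjusted). Pathway calls numbered 3 after quantile normalization or loess, 39 after centring, and 0 with the 3′ to 5′ or fibroblast covariate (33 and 43 unadjusted). The cause of these changes was not tested. By construction, fewer probe sets were tested with 1 per gene, and fewer arrays entered the fit of 8.

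Leaving out 1 array gave 5 probe sets (without 5-day replicate 2 or chow replicate 3) to 1591 at 5 days, 1945 (without chow replicate 3) to 4407 at 42 days and 32 (without 42-day replicate 4) to 3173 between the times. Member calls ranged from 0 to 2, from 3 to 4 and from 0 to 2, and pathway calls from 0 to 4, from 4 to 12 and from 0 to 18. Whether replicate numbers pair the samples is not given in the labels. Of 12 same-number pairs 4 correlated over 0.1 (-0.18 to 0.18), and 4 arrays correlated best with their own number. Such weak correlations over few arrays cannot settle the pairing. With the replicate block the 5-day call of Xbp1 1420886_a_at was lost (adjusted p = 0.0532) and that of Pdia4 1450620_at gained (adjusted p = 0.0425). Single results were followed under the alternatives for every member probe set and for the brightest probe set of each pathway gene named by the rule. None of these past the test changed direction under any alternative. Other probe sets of pathway genes were not followed, also where they are given above as passing. Of all values followed, 2314 kept their side of the threshold, 35 gained a call and 267 lost one. Most belonged to results not called in the main fit, and only results called there could lose a call.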

Other observations

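The profiles most like those of 2 members are given as a description over 12 arrays that share 3 groups, with no test. For the brightest probe set of Hspa5 they were Vegfc (r = 0.916), N4bp1 (r = 0.904) and Ankhd1 (r = 0.897), and for that of Xbp1 they were Pqbp1 (r = 0.958), Gnpnat1 (r = 0.934) and Acp6 (r = 0.930).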
